A study of Zea mays with 8 samples.

Results

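Clustered tassel regions of one tag are places where the maize transcription factor RAMOSA1 (RA1) gave a chromatin immunoprecipitation sequencing (ChIP-seq) peak in tassel with 1 of 2 tagged fusions and in no other library, and where another tassel peak lay close by. Peaks of all 4 deposited lists on chromosomes 1 to 10 that overlapped by at least 1 bp were joined into 25032 regions. A region was kept when it held peaks of 1 list only, that list was a tassel one, and less than 10 kb separated its end from the next region with a tassel peak. This gave 885 of the 5888 one-tag tassel regions, or 15.0% (exact 95% binomial interval 14.1 to 16.0, as for the ranges after all later percentages), of which 311 were HA-only and 574 YFP-only. The other 5003 one-tag regions (1865 HA-only and 3138 YFP-only) lay 10 kb or more from any other tassel region and are called isolated. Both sets were chosen by the peak calls and by the distances between them, so all of their values are given as descriptions and no test was run on them.

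The plants carried RA1 with an N-terminal HA-FLAG tag (HA) or YFP tag in an ra1/ra1 B73 genotype per the labels, after transformation of HiII plants and crosses to ra1-R, and both fusions were driven in the gene's own expression domain. The fusions could complement ra1, in families that segregated for both. Tassel primordia of 1 to 5 mm were pooled about 4 weeks after planting, and ear primordia of the same size at 6 weeks. An HA or a GFP antibody was used, and each combination of tissue and tag had 1 ChIP library and 1 input DNA library. The tassel HA and YFP lists held 2875 and 4797 peaks on chromosomes 1 to 10, and the ear HA and YFP lists 6641 and 12840. The total reads of the libraries are unknown here, so binding that differs between the tags and a peak missed with 1 tag for want of depth cannot be told apart.

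RA1 is a plant zinc finger protein that limits branching: in ra1 mutants, the tassel and the ear form long branches where wild-type plants form short paired spikelets. It acts next to the meristems that become spikelet pairs, and its protein carries a repression motif that recruits a co-repressor. A transcription factor can bind several sites along one stretch of chromatin, so neighbouring peaks are described here by their number, spacing, tag and height. The genes and sequences under them were not analysed here.

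The members formed 494 clusters, where a cluster is a chain of regions with a tassel peak whose gaps are all under 10 kb. Most were pairs: 443 clusters (89.7%) had 2 regions, 42 had 3, 8 had 4 and 1 had 5. The span of a cluster had a median of 4421.5 bp (quartiles 1962 and 7786), and the longest reached 19541 bp. HA-only regions made up the whole of 57 clusters and YFP-only regions the whole of 145. Another 138 clusters mixed HA-only with YFP-only regions. A region with both tags was part of 85 clusters (17.2%), and a further 69 held a one-tag region that also had an ear peak. Among the 316 pairs made of 2 members, 139 joined YFP with YFP, 124 HA with YFP and 53 HA with HA. Being near another tassel region was not particular to one-tag regions. Of all 7027 regions with a tassel peak, 15.4% had another one under 10 kb away, and of the 621 regions with both tags 17.9% did.

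Short gaps were the most frequent. The median gap from a member to its nearest tassel neighbour was 2933 bp (quartiles 892 and 5717), 3337 bp for HA-only and 2678 bp for YFP-only members. Of the one-tag regions, 238 had a gap under 1 kb, 106 had a gap of 1 to 2 kb and 45 of 9 to 10 kb. Past the limit, 70 had a gap of 10 to 11 kb and 34 of 19 to 20 kb, so the limit falls within a slow decline and not at a break. A gap under 1 kb was found for 72 HA-only members (23.2%, 18.6 to 28.2) and 166 YFP-only members (28.9%, 25.2 to 32.8). The closest HA-only members lay 6, 18 and 31 bp from a YFP-only peak. The first was on chromosome 3 from 50823598 to 50824135, with a height of 4 fragments beside a YFP-only height of 3. These are pairs that missed the 1 bp overlap by a few bases and would otherwise count as regions of both tags. Among the 286 members whose nearest neighbour had the opposite tag alone, 22 had a gap under 300 bp, and the median distance between summits was 3629.5 bp. Another of the 3 closest YFP-only gaps, also 6 bp, split 2 YFP-only peaks on chromosome 10 from 73454385 to 73455040, with heights of 8 and 4 fragments. All coordinates are in the assembly AGPv2.

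**Figure D1:**
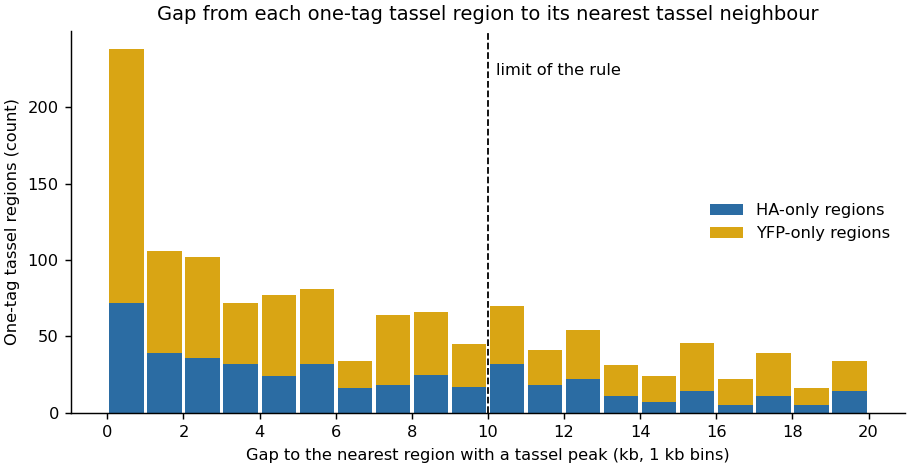
Number of one-tag tassel regions (y axis) by the gap to the nearest region with a tassel peak (x axis, kb, bins of 1 kb), stacked by tag. The first bin holds 238 regions and the bin before the 10 kb limit holds 45, against 70 in the bin after it.

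A few regions lay right beside the limit, and their values are given as examples. The 3 members just inside it had gaps of 9963, 9947 and 9921 bp and heights of 4, 4 and 3 fragments. The 3 regions just outside had gaps of 10009, 10009 and 10011 bp and heights of 5, 4 and 3 fragments. Those with a gap of 10009 bp are each other's nearest neighbour. So few regions cannot show whether the sides are alike. The height is the pileup of fragments at the summit that the authors deposited, in whole fragments and not scaled to depth.

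The nearest neighbour of a member was most often another one-tag region without an ear peak, in 738 of 885 cases (83.4%, 80.8 to 85.7). Such regions made up a like share of all tassel regions, 5888 of 7027. HA-only members had an HA-only nearest neighbour in 130 of 311 cases (41.8%, 36.3 to 47.5), whereas HA-only regions made up 31.0% of all regions with a tassel peak. They had a YFP-only nearest neighbour in 142 cases (45.7%, 40.03 to 51.4), against 52.8% of all tassel regions. YFP-only members had a YFP-only nearest neighbour in 322 of 574 cases (56.1%, 51.9 to 60.2, against the same 52.8%) and an HA-only one in 144 (25.1%, 21.6 to 28.8, against 31.0%). The HA-only share thus stood above its background, while the interval of the YFP-only share took its background in. A pair of members counts once from each side, as in the 53 pairs of HA with HA. These cases are not independent, so the intervals are too narrow. Overlapping peaks of opposite tags become regions of both tags and leave the set, and the part of this in the shares was not tested. At gaps of 1 kb or more the same-tag shares were 43.5% (37.1 to 50.1, 239 members) for HA-only and 54.9% (49.9 to 59.8, 408 members) for YFP-only members. Regions with both tags were the nearest neighbour of 22 HA-only (7.07%, 4.49 to 10.5) and 54 YFP-only members (9.41%, 7.15 to 12.1), against 8.84% of all tassel regions. Of these, 13 HA-only and 32 YFP-only members had a both-tag neighbour without an ear peak, a kind that made up 5.55% of all tassel regions. The other 9 HA-only and 22 YFP-only members had one with an ear peak, a kind that made up 3.29%. YFP regions with an ear peak were the nearest neighbour of 15 HA-only members (4.82%, 2.72 to 7.83) and 49 YFP-only members (8.54%, 6.38 to 11.1), against 6.36% of all tassel regions.

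**Figure D2:**
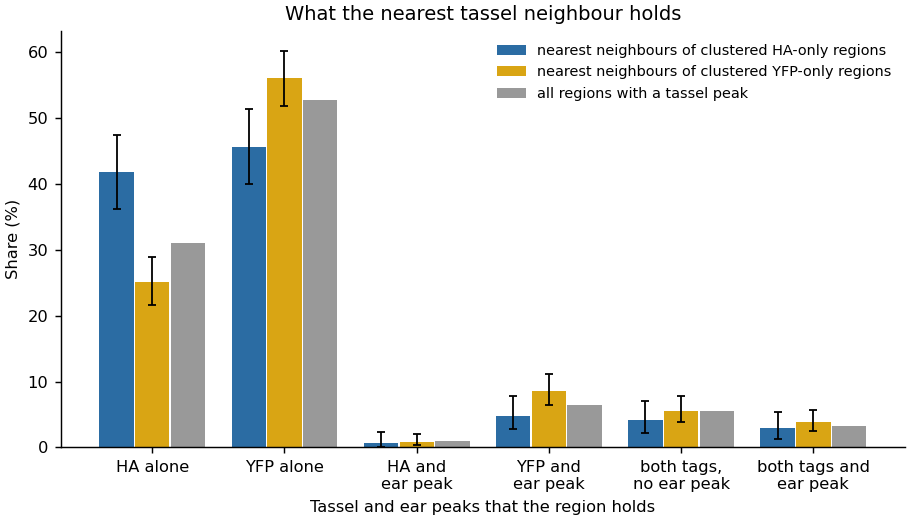
Share (y axis, %) of each kind of region (x axis) among the nearest tassel neighbours of clustered HA-only members (n = 311) and clustered YFP-only members (n = 574), beside all 7027 regions with a tassel peak; bars on the columns are exact 95% binomial intervals. HA-only neighbours make up 41.8% for HA-only members and 25.1% for YFP-only members, against 31.0% of all tassel regions.

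Members beside a region of both tags mostly had a higher neighbour, while their own median height was that of all members, 4 fragments. An exception was a YFP-only member on chromosome 9 from 23451740 to 23452025, with 7 fragments beside a both-tag region of 2. The 22 HA-only members of this kind had a median height of 4 fragments (range 2 to 5), against 10 fragments (4 to 29) in the neighbour. The 54 YFP-only members had a median of 4 fragments (2 to 12), against 13.5 fragments (2 to 169) in the neighbour. A neighbour's height is its highest summit in any list, ear lists included, so regions with more peaks have more chances of a high one. These HA-only members lay a median of 1208.5 bp from the both-tag region, and the YFP-only members 2547 bp.

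The 9 clusters with 4 or more tassel regions were of several kinds. The 8 clusters of 4 are tied in size, and those with more members and a higher sum of member heights are given first. The one with 5 regions, on chromosome 10 from 130564012 to 130572747, was HA-only throughout, with heights of 4, 6, 3, 3 and 3 fragments from left to right. On chromosome 4 between 172407292 and 172425782, an HA-only cluster of 4 had summits at 5, 9, 7 and 12 fragments. On chromosome 7 between 6303312 and 6317816, the summits of a YFP-only cluster of 4 stood at 4, 10, 5 and 4 fragments. Its gaps were 4208, 4209 and 4987 bp. In contrast, a cluster on chromosome 5 from 114044667 to 114057557 was mixed, with 2 YFP-only regions on the left and 2 HA-only regions on the right, all with a height of 4 fragments. On chromosome 9 from 131253018 to 131258875, YFP-only regions of 4, 2 and 12 fragments lay left of a region with both tags, which had a height of 4 fragments with each. The YFP-only region of 12 fragments had a score of 833.75, the highest of any member. The authors' score appears to be minus the log10 of each peak's p-value, multiplied by 10. Another, on chromosome 7 from 166856774 to 166860567, rested on few fragments, with YFP-only heights of 2 and 3, an HA-only height of 2, and a both-tag region with heights of 4 (HA) and 3 (YFP). These 6 clusters held no ear peak, while each of the 3 others did. On chromosome 8 from 166817750 to 166828865, an HA-only region of 4 fragments and a YFP-only region of 7 fragments lay left of 2 regions found in all 4 lists, whose tassel YFP heights were 75 and 35 fragments. On chromosome 1 from 89234933 to 89248557, YFP-only regions of 4 and 3 fragments flanked a both-tag region and a YFP region with an ear HA peak. On chromosome 4 from 6275083 to 6294623, YFP-only regions of 4 and 3 fragments lay between 2 both-tag regions, and the right one of these had ear heights of 27 (HA) and 26 (YFP) fragments.

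**Figure D3:**
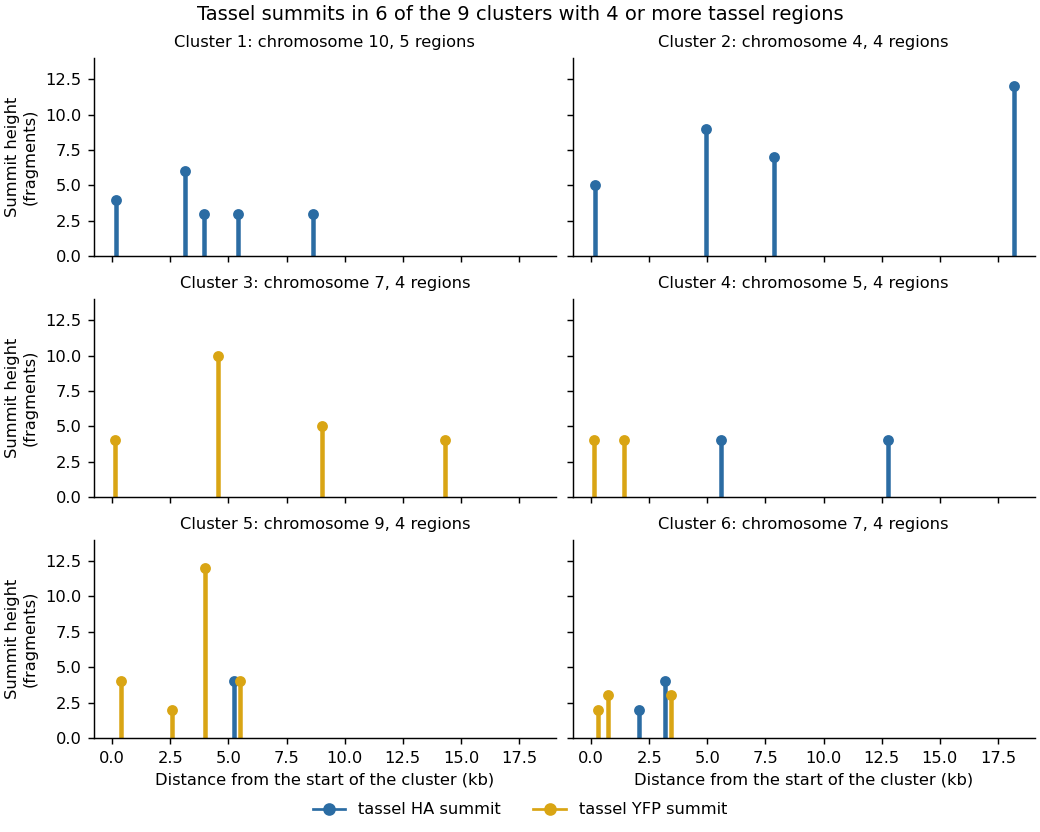
Summit height (y axis, fragments) against distance from the start of the cluster (x axis, kb) for each tassel summit in 6 of the 9 clusters with 4 or more tassel regions, those with the most members; a pair of stems side by side is a region with both tags, drawn slightly apart. Clusters 1 to 3 hold peaks of a single tag, cluster 4 has 2 of each tag, and clusters 5 and 6 end in a region with both tags.

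Typical heights were the same in clustered and isolated regions. The median was 4 fragments in clustered and in isolated regions of either tag, and 2 was the lowest in all 4 sets. The upper tails differed. Of the HA-only regions, 49 of 311 clustered ones (15.8%, 11.9 to 20.3) had a height of at least 5 fragments, against 156 of 1865 isolated ones (8.36%, 7.15 to 9.71). At 7 fragments or more, 14 clustered HA-only regions were left (4.50%, 2.48 to 7.44), against 14 isolated ones (0.751%, 0.411 to 1.26). Of the YFP-only regions, 206 of 574 clustered ones (35.9%, 31.96 to 39.96) reached 5 fragments, against 869 of 3138 isolated ones (27.7%, 26.1 to 29.3). At 7 fragments or more the YFP-only shares were 14.6% (11.8 to 17.8) clustered and 10.04% (9.01 to 11.1) isolated. The score did not set clustered HA-only regions above isolated ones: 7.40% (4.75 to 10.9) of the clustered and 9.54% (8.25 to 10.97) of the isolated ones scored 100 or more. Of the YFP-only regions, 28.7% (25.1 to 32.6) of the clustered and 22.9% (21.5 to 24.5) of the isolated ones did. Clustered HA-only regions had a median width of 362 bp and isolated ones 342 bp, while YFP-only widths were 280 bp clustered and 281 bp isolated.

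**Figure D4:**
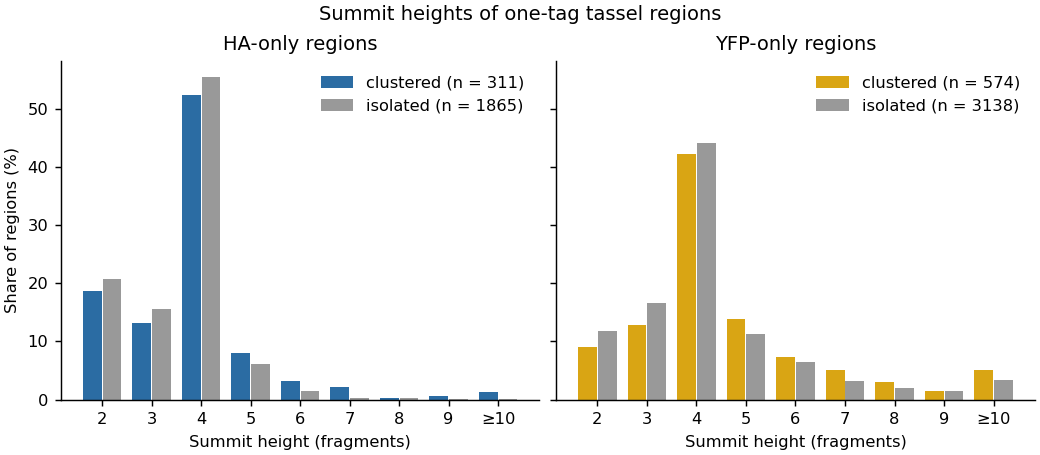
Share of regions (y axis, %) by summit height (x axis, fragments) for clustered and isolated one-tag tassel regions, HA-only on the left and YFP-only on the right. All 4 sets peak at 4 fragments. At 10 or more the HA-only shares rest on few regions, 1.29% clustered (4 of 311, 0.352 to 3.26) and 0.161% isolated (3 of 1865, 0.0332 to 0.469). The YFP-only shares are 5.05% clustered (29 of 574, 3.41 to 7.18) and 3.35% isolated (105 of 3138, 2.74 to 4.04). The intervals overlap for each tag.

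The tall HA-only members sat together. Of the 14 with at least 7 fragments, 13 had an HA-only nearest neighbour, and 11 lay in 3 stretches of chromosome. The first stretch, on chromosome 1 from 38261915 to 38267150, held the 2 highest HA-only members, with heights of 14 and 13 fragments, widths of 707 and 705 bp, and a gap of 3824 bp between them. The second, on chromosome 4, is the cluster of 4 named above with 3 further HA-only regions to its left. These 7 regions spanned 172380432 to 172425782, and in order their heights were 9, 11, 5, 5, 9, 7 and 12 fragments. No YFP or ear peak lay within that stretch. The third, on chromosome 1 from 234467163 to 234523367, held 5 HA-only regions of 7 to 9 fragments, 4 of them members. Without these 3 stretches, 3 of 297 HA-only members (1.01%, 0.209 to 2.92) had a height of at least 7, and 11.8% (8.35 to 16.0) at least 5. The stretches were picked out after the heights were seen and by their tall members, so both falls in share follow from that choice. Without them, 39.4% of HA-only members (33.8 to 45.2) had an HA-only nearest neighbour. The highest isolated HA-only region, on chromosome 4 from 51608362 to 51608701, had a height of 12 fragments, and its nearest tassel neighbour was 105545 bp away.

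Tall YFP-only members were more numerous, 84 with at least 7 fragments. Of these, 52 had a YFP-only nearest neighbour, and in 11 cases that neighbour also had at least 7 fragments, as 9 of the 14 tall HA-only members did with an HA-only neighbour. Tall YFP-only regions under 100 kb apart formed 12 stretches of 2 or 3, against 3 stretches of 2 to 5 for HA. One, on chromosome 7 from 3170561 to 3181924, held 3 tall members of 7 to 8 fragments. The highest YFP-only member, on chromosome 6 from 162566462 to 162566764, had a height of 28 fragments and lay 4576 bp from a YFP-only region of 4 fragments. The next, on chromosome 8 from 23992694 to 23992971, had 16 fragments, and its neighbour at 3528 bp had a tassel YFP height of 4 and an ear YFP height of 8 fragments. The other 3 of the 5 highest had 14, 13 and 13 fragments, beside one-tag neighbours of 5, 3 and 4 fragments. In each of these 5 cases the neighbour was far lower than the member, which the choice of the highest members favours. Among all 574 YFP-only members the nearest neighbour was higher in 245 cases (42.7%, 38.6 to 46.8), as high in 140 and lower in 189 (32.9%, 29.1 to 36.9). A neighbour's height there is its highest in any list. The highest isolated YFP-only region, on chromosome 5 from 200825021 to 200825465, had a height of 27 fragments, 1 below the highest member. A second region of the same tag with at least 7 fragments lay under 100 kb away for 11 of the 14 tall HA-only members (78.6%, 49.2 to 95.3) and for 13 of the 84 tall YFP-only members (15.5%, 8.51 to 25.01). The HA-only count restates the 11 members of the 3 stretches, which were formed with this same 100 kb link. Members of 1 stretch are not independent, so these intervals are too narrow. Among tall isolated regions, which by the rule have no tassel region within 10 kb, the counts were 1 of 14 HA-only and 13 of 315 YFP-only. Tall HA-only regions numbered 28 and tall YFP-only regions 399, so YFP offered more possible partners.

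Beyond the 10 kb of the rule, the shares of clustered HA-only regions with an HA-only, a YFP-only or a both-tag region around them were higher than those of isolated ones, with intervals apart for the HA-only share alone. Another HA-only region lay 10 to 50 kb away from 52 of 311 clustered HA-only regions (16.7%, 12.7 to 21.3), against 175 of 1865 isolated ones (9.38%, 8.10 to 10.8). Without the 3 stretches the clustered share was 13.5% (9.80 to 17.9), and its interval overlapped that of the isolated ones. A YFP-only region lay at that distance from 17.7% (13.6 to 22.4) of the clustered and 12.98% (11.5 to 14.6) of the isolated HA-only regions, and a both-tag region from 4.18% (2.24 to 7.04) and 2.31% (1.67 to 3.09). Regions of ear peaks only went the other way, around 44.7% (39.1 to 50.4) of the clustered and 50.5% (48.2 to 52.7) of the isolated HA-only regions, with overlapping intervals. For YFP-only members the same-tag shares were close: another YFP-only region lay 10 to 50 kb away from 14.8% (12.003 to 17.98) of the clustered and 14.7% (13.5 to 16.0) of the isolated ones. Their other shares, clustered against isolated, were 9.93% and 8.22% for HA-only regions, 2.26% and 2.58% for both-tag regions, and 52.96% and 49.4% for regions of ear peaks only.

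Ear occupancy near the members can be read only with the rule in mind, since an isolated region cannot have a tassel region with an ear peak within 10 kb. A region with an ear peak lay under 10 kb away from 301 of 885 clustered members (34.0%, 30.9 to 37.2), against 1102 of 5003 isolated ones (22.0%, 20.9 to 23.2) and 24.0% of all tassel regions. When only regions with ear peaks and no tassel peak were counted, the shares were 24.3% (21.5 to 27.3) for clustered and 22.0% (20.9 to 23.2) for isolated regions, beside 22.4% of all tassel regions. No test of this difference was run. By tag, the clustered shares were 23.2% (18.6 to 28.2) for HA-only and 24.9% (21.4 to 28.7) for YFP-only members.

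Members lay toward the chromosome ends more than isolated regions did. Of the clustered HA-only regions 51.8% (46.1 to 57.4) lay in the outer 40% of the span, against 45.4% of isolated ones (43.1 to 47.7). The same zone held 55.7% of clustered YFP-only regions (51.6 to 59.9), against 46.7% of isolated ones (44.9 to 48.4). Of all tassel regions 47.7% lay there, and only the YFP-only intervals were apart. The middle 20% of the span held 11.98% (9.91 to 14.3) of the members of both tags together and 17.4% (16.4 to 18.5) of isolated regions. By tag, these shares were 12.9% (9.35 to 17.1) and 17.6% (15.9 to 19.4) for HA-only regions, with overlapping intervals. For YFP-only regions they were 11.5% (9.01 to 14.4) and 17.3% (16.0 to 18.7). Tassel regions are denser toward the ends, and in a denser stretch more of them fall within 10 kb of another by spacing alone. How much of the difference that spacing makes was not tested. Along the span, the share of one-tag regions that were clustered was 18.5% in the first decile, 10.13% in the fifth and 17.0% in the last. HA-only members numbered 43, 30 and 23 in the first 3 deciles and 47, 44 and 44 in the last 3. YFP-only members numbered 99, 67 and 50 in the first 3 and 49, 63 and 91 in the last 3. Among chromosomes, the clustered share of one-tag regions ranged from 12.1% (9.52 to 15.0) on chromosome 3 to 18.3% (15.4 to 21.5) on chromosome 5. Chromosome 2 had the most members, 130 of 726 one-tag regions, and chromosome 10 the fewest, 55 of 407.

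**Figure D5:**
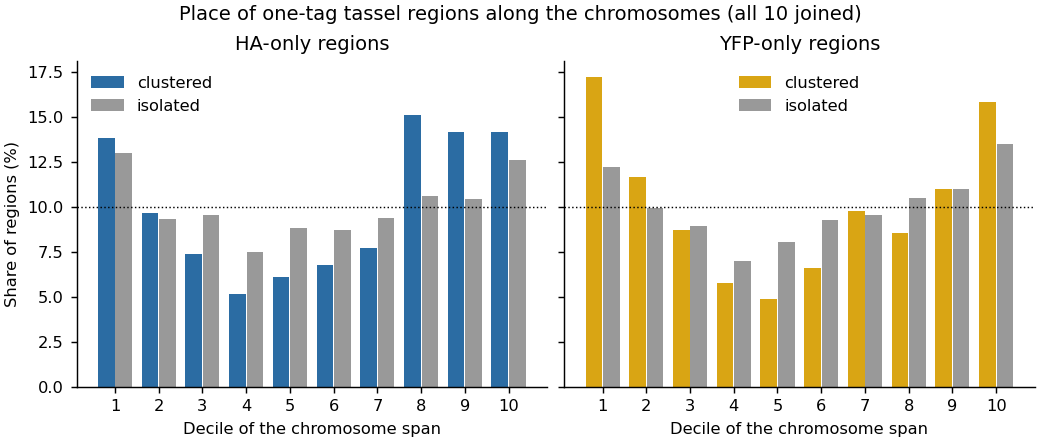
Share of regions (y axis, %) in each decile of the chromosome span (x axis, all 10 chromosomes joined), for clustered and isolated one-tag tassel regions, HA-only on the left and YFP-only on the right; the dotted line marks the 10% of an even spread. In the first decile the shares are 17.2% clustered and 12.2% isolated for YFP-only regions, and in the fifth decile 4.88% clustered and 8.03% isolated.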

How the data were processed

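RA1 ChIP-seq peak and summit lists of tassel and ear primordia, 1 ChIP library per tissue and tag, were read as deposited. Per the submitters' processing notes, CASAVA and MACS 1.4.0rc2 were used; the limit for a peak was a p-value of 1e-05 against input, per the series design text. How reads were aligned and filtered, and which input each ChIP library was set against, is not given in the sources used here. No deposited score lies below 50, which is that limit on the scale of minus log10 p multiplied by 10, and the score is read so. The deposited summit signal is a height in whole fragments, not scaled to depth. Sequence names carry the prefix of AGPv2, and 1 was added to BED starts.

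Regions, gaps and clusters were computed in Python 3.11.15 (pandas 2.3.3, numpy 2.4.6; scipy 1.17.1 for intervals), with functions tested on simulated data. Peaks on unplaced sequence and organelle genomes were set aside. Each chromosome's span was taken up to its last peak. Intervals are exact 95% binomial (Clopper-Pearson) intervals and cover counting error within these libraries. Regions are not replicates, neighbours share a library, and comparing intervals by eye is no test. Some of the named regions followed a fixed rule. It took 6 clusters by number of tassel regions (ties by more members, then by the sum of member heights). It also took the 5 highest members and the 3 smallest gaps per tag. Its other picks were the 3 regions on either side of the limit and the highest isolated region per tag. Regions named outside this rule were the rest of the largest clusters, the stretches with tall regions and the runs of a single tag. The higher YFP-only member given as an exception beside a both-tag region was outside it too. The stretches with tall HA-only members and the link for the runs were chosen after the data were seen. The members, lists and rule were chosen with earlier results of these data known.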

Additional observations from a re-analysis of the deposited data

Results flagged for a closer look

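One-tag tassel clusters were also found outside the 10 chromosomes, in sequence that the comparisons set aside. They are flagged only because some counts exceeded the 3 that a count of 0 allows. No share expected from the lengths of these sequences was computed, so the counts are no measure of clustering beyond spacing alone. On the unplaced sequence, 16 of 34 HA-only regions lay under 10 kb from another tassel region, while 1 of 3 YFP-only regions did. On the mitochondrial genome 14 of 18 YFP-only regions were clustered, and HA had 1 region there. All 18 YFP-only regions, clustered or not, had a median height of 12 fragments and a median width of 2158.5 bp. On the plastid genome 6 of 8 YFP-only regions were clustered, and HA had none. The median height of all 8 was 17.5 fragments. Input values for these sequences were not analysed here.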

How the results depend on the processing

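Of 42 values (7 results under 6 alternatives), 25 stayed within 1.5 times the main count or within the main interval and 17 moved. The share of one-tag regions that were clustered was 10.11% with a limit of 5 kb and 21.4% with 20 kb, and the share of members with an ear region nearby was 29.6% with 20 kb. With peaks of a score of at least 100 only, 138 members were left (9.04% of one-tag regions), with 22.2% same-tag neighbours among 9 HA-only members and 76.7% among 129 YFP-only members, where HA-only and YFP-only regions were 12.1% and 66.8% of tassel regions. An ear region was then near 10.9%, and the median YFP-only height was 7 fragments. With peaks of at least 5 fragments only, 142 members were left (10.14%), an ear region was near 43.0%, and both median heights were 6 fragments. The HA-only same-tag share was then 77.4% of 31 members, where HA-only regions were 10.4% of tassel regions. All HA-only members of the 3 stretches with tall HA-only members had at least 5 fragments, so a few loci weigh heavily in this share. It was not computed without them. With ear lists ignored in the rule, there were 985 members, the YFP-only same-tag share was 66.0% and the share with an ear region nearby 40.7%. In this setting YFP regions with an ear peak count as YFP-only, both as members and as neighbours. An ear peak that overlaps a member also counts as nearby. Both shares thus rise in part by definition, and no background share is given for this setting. Asking for an overlap of at least 50% of the shorter peak moved none of the 7. By construction, the filters remove peaks, a wider limit can only add members, and ignoring ear lists changes which regions are one-tag. What else lay behind the shifts was not tested. No paired analysis was possible because each group has 1 library. Most members rest on 4 fragments or fewer, which limits how firmly any single one is placed.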

Other observations

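Runs of a single tag were counted with a wider link, chosen after the data were seen: consecutive tassel regions of one tag alone, each under 20 kb from the next. Runs of at least 4 regions numbered 4 with HA, the longest of 7 regions, and 1 with YFP, of 4 regions, although YFP-only regions were the more numerous (3712 against 2176). Besides the runs on chromosomes 4, 7 and 10 described above, HA-only runs of 4 regions lay on chromosome 5 from 157942037 to 157966608, with heights of 6 to 7 fragments, and from 195037674 to 195069640, with heights of 3 to 10 fragments.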
